A study of Homo sapiens with 16 samples.

Results

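The insulin-like growth factor (IGF) binding proteins IGFBP1 to IGFBP7, the receptors IGF1R and IGF2R and the ligand IGF2 were followed through RNA-seq libraries of PC3, a long-established cell line from a human prostate cancer. The 10 genes were taken by name from the 20356 genes of the count table after Ensembl identifiers had been given symbols, and all 10 were in the table. The study asked what DDX4, an RNA helicase of germ cells, does in these cancer cells. It compared DDX4-null xenograft tumors with control xenograft tumors and DDX4-null monolayer cells with control monolayer cells, the controls being wild type for DDX4, with 4 libraries in each of the 4 groups. A xenograft tumor is grown from the human cells in a host animal; the host, the time of growth, how DDX4 was removed and whether the null cells were 1 clone were not stated in the sources read here. Nothing in the labels ties the libraries of a group to separate cultures or host animals, so every p-value reflects library-to-library spread alone, possibly technical.

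IGF2 and its relative IGF1 are secreted growth factors that signal through IGF1R, a receptor tyrosine kinase that drives growth and survival. IGF2R is the cation-independent mannose 6-phosphate receptor, which carries enzymes to lysosomes and takes up IGF2 for degradation. The binding proteins hold IGFs in the space around cells, mostly keeping them from the receptor until a protease cuts them, and several also act on cells without IGFs; in the prostate they are made by both epithelium and stroma.

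Library totals ran from 12204254 to 25443952 counts, so that a count of 0 allowed up to 0.118 to 0.246 CPM (counts scaled to a library of 1e+06) in a library. DDX4 itself had 0 to 5 counts in every library, too few to check the labels. The epithelial keratin genes KRT8 and KRT18 were well covered in all groups. RNA of 9 fibroblast markers, absent or low in an epithelial line, summed to 1685 to 10859 CPM in DDX4-null tumors and 1398 to 1890 CPM in control tumors, against 45.4 to 57.8 CPM in DDX4-null cells and 23.8 to 31.0 CPM in control cells. All 9 had counts in both tumor groups, while 3 were at 0 in every DDX4-null monolayer and 1 in every control monolayer. The collagen gene COL1A1 made up most of the monolayer sum. DDX4-null tumor 1 stood apart with 10859 CPM of these markers, since the other 3 DDX4-null tumors held no more than 1936 CPM. Skeletal muscle markers, 8 genes, summed to 142 to 440 CPM in DDX4-null tumors and 188 to 455 CPM in control tumors. They summed to 13.6 to 18.3 CPM in DDX4-null cells and 17.9 to 19.9 CPM in control cells. Endothelial markers, 7 genes, summed to 30.2 to 47.3 CPM in DDX4-null tumors and 25.7 to 33.5 CPM in control tumors. Their sums were 28.3 to 32.6 CPM in DDX4-null cells and 21.0 to 23.3 CPM in control cells. In bulk tumor RNA, fewer cells of a type and less RNA per cell cannot be told apart, and removal of host reads is not described in the sources used here.

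The 10 genes were chosen by the gene family after genotype differences of these libraries had been seen, namely the higher IGFBP2 RNA of DDX4-null libraries in both settings. Counts of called genes and adjusted p-values therefore place a gene in the whole table and are no evidence for the list. In monolayer IGF2, IGFBP1, IGFBP2 and IGFBP3, and in tumors IGFBP2, passed the filter on low counts only through the group where they were high, so that they had to differ. A gene was called at a Benjamini-Hochberg adjusted p under 0.05 in the quasi-likelihood test of edgeR, adjusted over all genes tested. In tumors 9 of the 10 genes passed the filter on low counts, and 1 was called higher and 0 lower, where 2.09% of all genes tested were called, 0.981% higher and 1.1% lower. In monolayer also 9 passed, and 5 were called higher and 3 lower, where 67.3% of all genes tested were called, 35% higher and 32.3% lower. The median size of the change over the tested members was 0.33 on the log2 scale in tumors, beside 0.16 for all genes, and 3.35 in monolayer, beside 0.48 for all genes. Both member medians include the genes that had to differ, which had the largest sizes, so nothing is read from this contrast. The libraries of the groups did not overlap for 1 of the tested members in tumors, where this held for 12.4% of all genes tested, and for 7 in monolayer, where it held for 59.3%. IGFBP2, whose values brought up the list, is the 1 member in both tumor counts. It is also among the 5 called higher and the 7 without overlap in monolayer.

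The promoters of 3 binding protein genes are shown because these genes carried the opposite monolayer changes described further on. IGFBP2 and IGFBP5 lie beside each other on chromosome 2, and both were higher in DDX4-null cells, which for IGFBP2 is a description only. IGFBP3 lies beside IGFBP1 on chromosome 7 and was lower in DDX4-null cells. Each sequence is the 250 bases before the gene's start, 5′ to 3′ on the gene's strand, from RefSeq on GRCh38.p14; the counts were made on GRCh37. Capitals mark the GC box, searched as GGGCGG on both strands, a match to the letters and not a proven site.
IGFBP2 (chr2:216633170-216633419, plus strand): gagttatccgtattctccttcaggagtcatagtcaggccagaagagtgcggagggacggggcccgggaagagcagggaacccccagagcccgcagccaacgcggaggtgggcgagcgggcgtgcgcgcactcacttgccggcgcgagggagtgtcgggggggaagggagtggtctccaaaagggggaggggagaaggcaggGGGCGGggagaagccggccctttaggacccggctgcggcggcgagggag
IGFBP5 (chr2:216695550-216695799, minus strand): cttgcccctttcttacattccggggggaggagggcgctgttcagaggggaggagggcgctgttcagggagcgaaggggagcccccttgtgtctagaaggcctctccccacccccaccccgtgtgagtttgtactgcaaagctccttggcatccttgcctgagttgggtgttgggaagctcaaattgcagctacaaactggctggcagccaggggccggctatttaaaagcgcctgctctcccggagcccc
IGFBP3 (chr7:45921273-45921522, minus strand): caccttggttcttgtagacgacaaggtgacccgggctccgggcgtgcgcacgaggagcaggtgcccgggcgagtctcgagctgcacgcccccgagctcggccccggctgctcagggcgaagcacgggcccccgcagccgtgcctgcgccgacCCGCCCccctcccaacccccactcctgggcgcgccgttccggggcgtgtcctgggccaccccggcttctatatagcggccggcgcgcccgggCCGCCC
The IGFBP2 window held 1 GC box, the IGFBP5 window 0 and the IGFBP3 window 2, and 42.6% of 35116 RefSeq promoter windows of this length hold at least 1. None of the 3 held TATAAA, found in 10.7% of all windows, or the AP-1 motif TGANTCA, found in 6.57%, with both strands searched. They held 22, 8 and 32 CpG dinucleotides in the order shown, against a median of 11, and their GC content was 69.2%, 61.2% and 76%, against a median of 58%. RefSeq promoter entries matched 7 of the 10 genes.

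**Figure D1:**
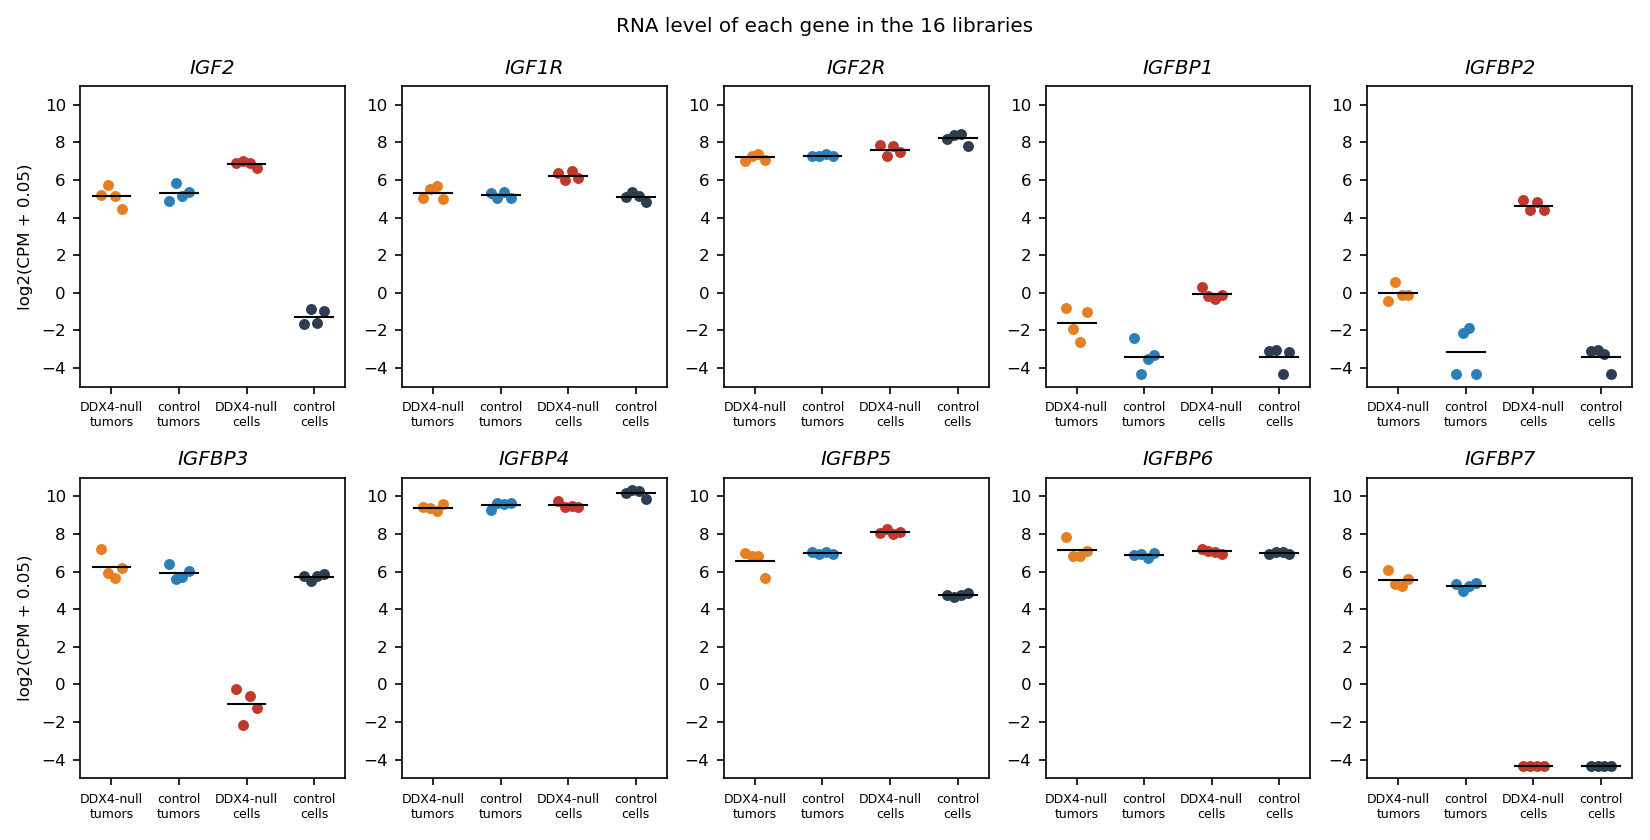
RNA level of each gene in the 16 libraries, as log2 of CPM plus 0.05, for DDX4-null tumors, control tumors, DDX4-null cells and control cells; points are libraries and bars are means of 4. IGF2, IGFBP1 and IGFBP2 were near the bottom of the scale in control cells, IGFBP3 was near it in DDX4-null cells, and IGFBP7 had counts in tumors only.

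IGF2, the fetal growth factor and the ligand of the list, was close to the counting floor in control cells and well above it in DDX4-null cells, where its level per exon length ranked 4 of the 10 genes, against 7 in control cells. The tumors showed no such contrast. IGF2 stood at 36.5, 52.4, 34.8 and 22.2 CPM in DDX4-null tumors and at 29.05, 57.6, 36.0 and 41.0 CPM in control tumors. These groups overlapped, with a log2 change of -0.17 ± 0.25 (SE, adjusted p = 0.728). In monolayer it had 2258, 2217, 1944 and 2124 counts in DDX4-null cells, or 117 ± 13.0 CPM, and 4, 7, 5 and 7 counts in control cells, or 0.374 ± 0.118 CPM (SD, n = 4 each). All DDX4-null monolayers lay far above all control monolayers, by 8.29 ± 0.18 on the log2 scale. IGF2 passed the filter on low counts through the DDX4-null cells alone, so that the monolayer groups had to differ. The ratio of the summed counts was 316, with a 95% counting interval of 210 to 499; such intervals cover counting error only. The genotype effect in tumors minus that in monolayer was -8.45 ± 0.40 on the log2 scale in the model of all 16 libraries (adjusted p = 3.35e-12).

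Between settings, IGF2 moved in opposite directions in the 2 genotypes. It was 111-fold higher in control tumors than in control cells (log2 change 6.78 ± 0.27), and it fell by 1.67 ± 0.20 in DDX4-null tumors against DDX4-null cells (adjusted p = 5.7e-06). The order of the levels was DDX4-null cells, then both tumor groups, which overlapped, then control cells. Its 10 nearest tested genes on chromosome 11, chosen after values were seen, held 3 called higher and 4 called lower in DDX4-null monolayers, with a median log2 change of -0.20 and a highest of 1.29. INS-IGF2, a read-through gene that shares exons with IGF2, had 0 counts in every library. The strand setting of the counting is not given in the sources used here, so reads of IGF2 and of its antisense gene cannot be told apart.

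IGF1R, the signalling receptor, overlapped between tumors of both genotypes and control cells, and was higher in DDX4-null cells. It stood at 32.5, 45.8, 52.1 and 31.9 CPM in DDX4-null tumors and at 40.1, 33.2, 41.6 and 33.0 CPM in control tumors, which overlapped (log2 change 0.14 ± 0.16, adjusted p = 0.642). In monolayer it stood at 81.7, 64.0, 88.6 and 69.9 CPM in DDX4-null cells and at 34.8, 41.0, 35.5 and 28.6 CPM in control cells. These groups lay apart, with a log2 change of 1.12 ± 0.12 (adjusted p = 1.86e-07). The effect in tumors was lower than that in monolayer by a log2 change of -0.98 ± 0.21 (adjusted p = 0.000641). DDX4-null tumors also lay below DDX4-null cells (log2 change -0.89 ± 0.16), whereas control tumors overlapped control cells (0.09 ± 0.12, adjusted p = 0.524). The median log2 change of the tested genes of its chromosome 15 was 0.26 in monolayer.

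IGF2R, the receptor that clears IGF2, was lower in DDX4-null cells than in control cells on average, with overlapping libraries. It averaged 147 ± 17.0 CPM in DDX4-null tumors and 157 ± 8.35 CPM in control tumors (log2 change -0.09 ± 0.09, adjusted p = 0.575). In monolayer it stood at 232, 154, 226 and 179 CPM in DDX4-null cells and at 294, 335, 350 and 226 CPM in control cells. The log2 change was -0.61 ± 0.14 (adjusted p = 0.000807), although the lowest control library lay below the highest DDX4-null one. In the order of the 4 groups every pair of neighbours overlapped. IGF2R was called lower in tumors than in cells of either genotype, by -0.40 ± 0.14 for DDX4-null and -0.93 ± 0.11 for control. In the DDX4-null setting comparison the call ended with chromosome medians taken out (adjusted p = 0.173) and without DDX4-null tumor 4 or DDX4-null cells 1 or 3 (adjusted p = 0.0521 to 0.068). The difference between the genotype effects was 0.52 ± 0.19 (adjusted p = 0.0274), a call lost with library totals (adjusted p = 0.145) and without any 1 of 4 libraries, DDX4-null tumor 3, DDX4-null cells 4 and control cells 2 and 3 (adjusted p = 0.0529 to 0.0646).

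**Figure D2:**
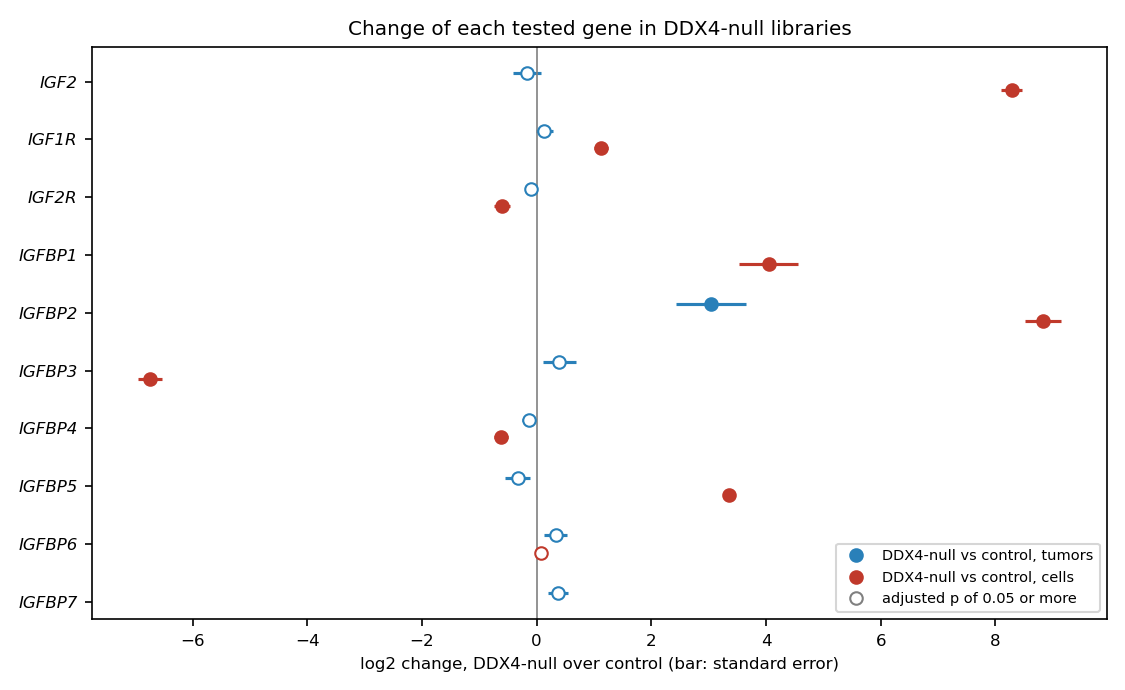
Log2 change of each tested gene, DDX4-null over control, in tumors and in monolayer cells; bars are standard errors and open symbols have an adjusted p of 0.05 or more. In monolayer the changes ran from -6.74 for IGFBP3 to 8.83 for IGFBP2, and in tumors all but that of IGFBP2 (3.04) lay between -0.33 and 0.40.

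IGFBP2, a binding protein that prefers IGF2 and is often high in advanced prostate cancer, gave the values that brought up the list, so they are described without a test. It had 8, 26, 15 and 14 counts in DDX4-null tumors and 0, 3, 6 and 0 counts in control tumors, which is 0.962 ± 0.313 CPM against 0.0995 ± 0.116 CPM (SD, n = 4 each). Every DDX4-null tumor lay above every control tumor, at counts near the floor, with a log2 change of 3.04 ± 0.61. In monolayer it had 569, 360, 463 and 447 counts in DDX4-null cells and 1, 1, 1 and 0 counts in control cells. DDX4-null cells held 25.2 ± 4.86 CPM, and the ratio of summed counts was 521 with a 95% counting interval of 178 to 2531. The effect in tumors was smaller than that in monolayer by a log2 change of -5.80 ± 1.03. Within DDX4-null material, IGFBP2 was lower in tumors than in cells by -4.65 ± 0.22 on the log2 scale, with no overlap. Control tumors and control cells both lay at the floor.

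IGFBP5, a binding protein that sticks to extracellular matrix, was high in DDX4-null cells and low in control cells, with tumors of both genotypes between them. DDX4-null tumors held 128, 113, 115 and 50.6 CPM and control tumors 131, 124, 133 and 123 CPM. The fourth DDX4-null tumor lay far below the other 7, and the change was -0.33 ± 0.22 (adjusted p = 0.406), against -0.10 without that tumor. DDX4-null cells held 269, 308, 256 and 271 CPM and control cells 26.9, 24.98, 26.7 and 29.4 CPM. The groups lay well apart, with a log2 change of 3.35 ± 0.10 (adjusted p = 1.52e-15). The genotype effect in tumors was below that in monolayer by a log2 change of -3.68 ± 0.26 (adjusted p = 8.55e-10). Between settings, DDX4-null tumors were lower than DDX4-null cells (-1.42 ± 0.22), and control tumors were higher than control cells (2.25 ± 0.09).

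The 10 nearest tested genes around the IGFBP2 and IGFBP5 pair, chosen after values were seen, held 6 called higher and 1 called lower in DDX4-null monolayers. Their median log2 change was 0.49 and the highest 7.26, while the median of chromosome 2 was 0.20. In tumors the changes of the 10 nearest tested genes ran from -0.44 to 0.13. Whether the position of the genes has a part in their changes was not tested.

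IGFBP3, the main IGF carrier of blood and a protein that slows growth of many epithelial cells, changed against IGFBP2 and IGFBP5 in monolayer. In tumors it stood at 145, 60.8, 50.3 and 72.9 CPM in DDX4-null tumors and at 83.9, 49.4, 51.6 and 64.6 CPM in control tumors. The groups overlapped, with DDX4-null tumor 1 above all others, and the log2 change was 0.40 ± 0.29 (adjusted p = 0.457), against -0.02 without that tumor. In monolayer it had 15, 3, 10 and 8 counts in DDX4-null cells and 830, 626, 986 and 894 counts in control cells, which is 0.490 ± 0.272 CPM against 53.1 ± 5.92 CPM (SD, n = 4 each). IGFBP3 was 109-fold lower in DDX4-null cells by the ratio of counts, with a 95% counting interval of 78.5 to 156, and the log2 change was -6.74 ± 0.21. It passed the filter on low counts through the control cells alone, so that the monolayer groups had to differ. The low level was seen in DDX4-null cells alone among the 4 groups, while both tumor groups and control cells overlapped with their neighbours in level. DDX4-null tumors were 156-fold higher than DDX4-null cells (log2 change 7.38 ± 0.43), whereas control tumors differed from control cells by 0.24 ± 0.14 (adjusted p = 0.155). That last difference was called with library totals (0.40, adjusted p = 0.0174) and with chromosome medians taken out (0.40, adjusted p = 0.0207). The difference between the genotype effects was 7.14 ± 0.48 (adjusted p = 4.32e-10).

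IGFBP1, the liver-made and insulin-regulated binding protein, moved the other way from its neighbour IGFBP3 in monolayer. It had 6, 4, 2 and 7 counts in DDX4-null tumors and 2, 0, 1 and 1 counts in control tumors, too few for the test, and the groups overlapped. The ratio of the summed counts was 5.88, with a 95% counting interval of 1.95 to 23.8. It had 22, 14, 12 and 19 counts in DDX4-null cells and 1, 1, 0 and 1 counts in control cells. These lay apart with a ratio of 18.995, a counting interval of 6.23 to 94.4 and a log2 change of 4.05 ± 0.52, for a gene that passed the filter on low counts through the DDX4-null cells alone. The difference between the genotype effects, -1.64 ± 1.17, was not called (adjusted p = 0.253). The 10 nearest tested genes around the IGFBP1 and IGFBP3 pair held 9 called lower and 0 called higher in DDX4-null monolayers, with changes of -5.79 to -0.24 and a median of -1.34. The median log2 change of all 594 tested genes of chromosome 7 was -0.73 there, and the change of IGFBP3 minus that median was -6.01. The part of the position of these genes in their changes was not tested. In tumors the changes of the 10 nearest tested genes ran from -0.26 to 1.04.

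IGFBP4, which mostly inhibits IGF action and is cut by the protease PAPP-A, had the highest RNA level per exon length of the 10 genes in both monolayer groups. It averaged 679 ± 76.7 CPM in DDX4-null tumors and 743 ± 89.2 CPM in control tumors (log2 change -0.13 ± 0.12, adjusted p = 0.547), and these overlapped. DDX4-null cells held 863, 701, 726 and 702 CPM and control cells 1138, 1288, 1268 and 912 CPM. All control monolayers lay above all DDX4-null monolayers, with a log2 change of -0.62 ± 0.12 (adjusted p = 0.000125). DDX4-null cells overlapped both tumor groups, and control cells alone stood higher. The difference between the genotype effects was 0.49 ± 0.17 (adjusted p = 0.0217), a call lost with library totals (adjusted p = 0.102) and without DDX4-null tumor 4 (adjusted p = 0.0525) or control tumor 1 (adjusted p = 0.0516). Control tumors fell by 0.63 ± 0.12 against control cells, and DDX4-null tumors changed by -0.12 ± 0.12 against DDX4-null cells (adjusted p = 0.367).

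IGFBP6, which binds IGF2 far more tightly than IGF1, varied least of the 10 genes, with an SD of log2 CPM of 0.25 over the 16 libraries and all 4 groups overlapping their neighbours in level. DDX4-null tumors held 226, 115, 113 and 134 CPM and control tumors 116, 122, 104 and 126 CPM. DDX4-null cells averaged 134 ± 10.9 CPM and control cells 127 ± 5.04 CPM (SD, n = 4 each). Among these only DDX4-null tumor 1 stood out. The log2 change was 0.33 ± 0.20 in tumors (adjusted p = 0.352), against 0.05 without that tumor, and 0.08 ± 0.09 in monolayer (adjusted p = 0.444).

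IGFBP7, a member with low affinity for IGFs that is made by vessels and stroma in many tissues, had 0 counts in all 8 monolayers. It had 773, 731, 640 and 789 counts in DDX4-null tumors and 569, 524, 1010 and 821 counts in control tumors. That is 67.1, 39.8, 36.8 and 49.4 CPM against 39.6, 30.8, 37.3 and 41.3 CPM. The tumor groups overlapped, DDX4-null tumor 1 was again the highest, and the log2 change was 0.37 ± 0.17 (adjusted p = 0.249), against 0.17 without that tumor. With 3 counts allowed over a group at 0, IGFBP7 was at least 1136-fold higher in DDX4-null tumors than in DDX4-null cells and at least 778-fold higher in control tumors than in control cells.

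**Figure D3:**
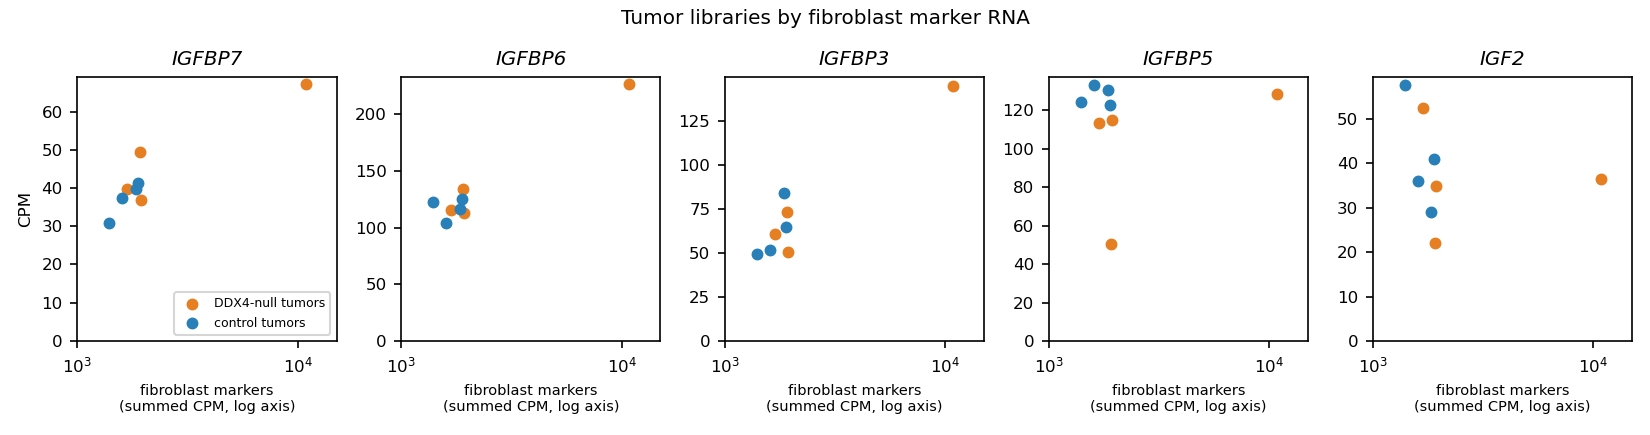
CPM of 5 genes in each DDX4-null and control tumor library against the summed CPM of 9 fibroblast markers on a log axis. DDX4-null tumor 1, at 10859 CPM of markers, had the highest IGFBP7, IGFBP6 and IGFBP3, and IGF2 at 36.5 CPM and IGFBP5 at 128 CPM lay within the range of the other tumors.

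The same tumor library thus held the highest RNA of IGFBP3, IGFBP6 and IGFBP7 and of the fibroblast markers. Its leukocyte markers, 8 genes, summed to 70.1 CPM, against 13.9 to 36.6 CPM in the other DDX4-null tumors and 15.2 to 31.9 CPM in control tumors. Most of that sum was CSF1R, at 37.3 CPM, and LYZ, so the list was not raised as a whole. CD14 was also highest in this tumor, by little. PTPRC, at 3.21 CPM, lay below all control tumors, which held 3.35 to 6.27 CPM. CD3E, CD68, CD79A and ITGAM lay within the range of the other tumors. The epithelial markers, 4 genes, also summed highest in DDX4-null tumor 1, at 669 CPM. They summed to 569 to 606 CPM in the other DDX4-null tumors and 524 to 579 CPM in control tumors. Its endothelial sum of 44.4 CPM and its pericyte and smooth muscle sum of 32.6 CPM lay within the range of the other tumors. Of these 2 lists, TEK, PDGFRB and CSPG4 were highest in this tumor, and CDH5, VWF, CLDN5, ESAM, RGS5 and ACTA2 were lowest. The part of stromal RNA in the levels of IGFBP3, IGFBP6 and IGFBP7 in tumors was not tested. In monolayer IGFBP3 averaged 0.490 CPM in DDX4-null cells and 53.1 CPM in control cells. IGFBP6 averaged 134 CPM in DDX4-null cells and 127 CPM in control cells, and IGFBP7 had 0 counts in both.

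Across settings, 10 of the 10 genes passed the filter between DDX4-null tumors and DDX4-null cells, and 2 were called higher in tumors and 6 lower, where 69.8% of all genes tested were called, 34.6% higher and 35.3% lower. The libraries of 7 did not overlap, as for 63.4% of all genes tested. Between control tumors and control cells 8 passed, and 3 were called higher and 2 lower, where 64.9% of all genes tested were called, 33.9% higher and 31% lower. Here the libraries of 5 did not overlap, as for 58.1% of all genes tested. The higher genes were IGFBP3 and IGFBP7 in the DDX4-null comparison and IGF2, IGFBP5 and IGFBP7 in the control comparison. IGFBP7 in both comparisons, IGFBP1 and IGFBP3 in the DDX4-null comparison and IGF2 in the control comparison passed the filter through the higher group alone. The genotype and setting comparisons share libraries and are given side by side for that reason. For the difference between the genotype effects 7 of 10 were called, 3 higher and 4 lower, where 52.8% of all genes tested were called, 26% higher and 26.8% lower; IGFBP7 had no usable estimate there because both monolayer groups were at 0.

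Per kilobase of exon, the binding protein RNA was mostly IGFBP4 and IGFBP6 in every group. The summed level of the 7 genes was 477 ± 71.2 CPM per kb in DDX4-null tumors, 477 ± 38.4 in control tumors, 489 ± 41.8 in DDX4-null cells and 633 ± 81.0 in control cells (SD, n = 4 each), and the 2 monolayer groups overlapped. IGFBP4 made up 65.2% of the sum in DDX4-null tumors, 70.5% in control tumors, 69.5% in DDX4-null cells and 82.4% in control cells. IGFBP6 made up 22.5%, 18.3%, 20.4% and 15.01% in the same groups. The rest differed by group: it was mainly IGFBP7, IGFBP3 and IGFBP5 in tumors, IGFBP5 at 8.82% in DDX4-null cells and IGFBP3 at 1.87% in control cells. IGFBP7 made up 5.17% in DDX4-null tumors and 4.08% in control tumors. IGFBP2 reached 1.08% in DDX4-null cells and no more than 0.0437% in the mean of any other group.

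**Figure D4:**
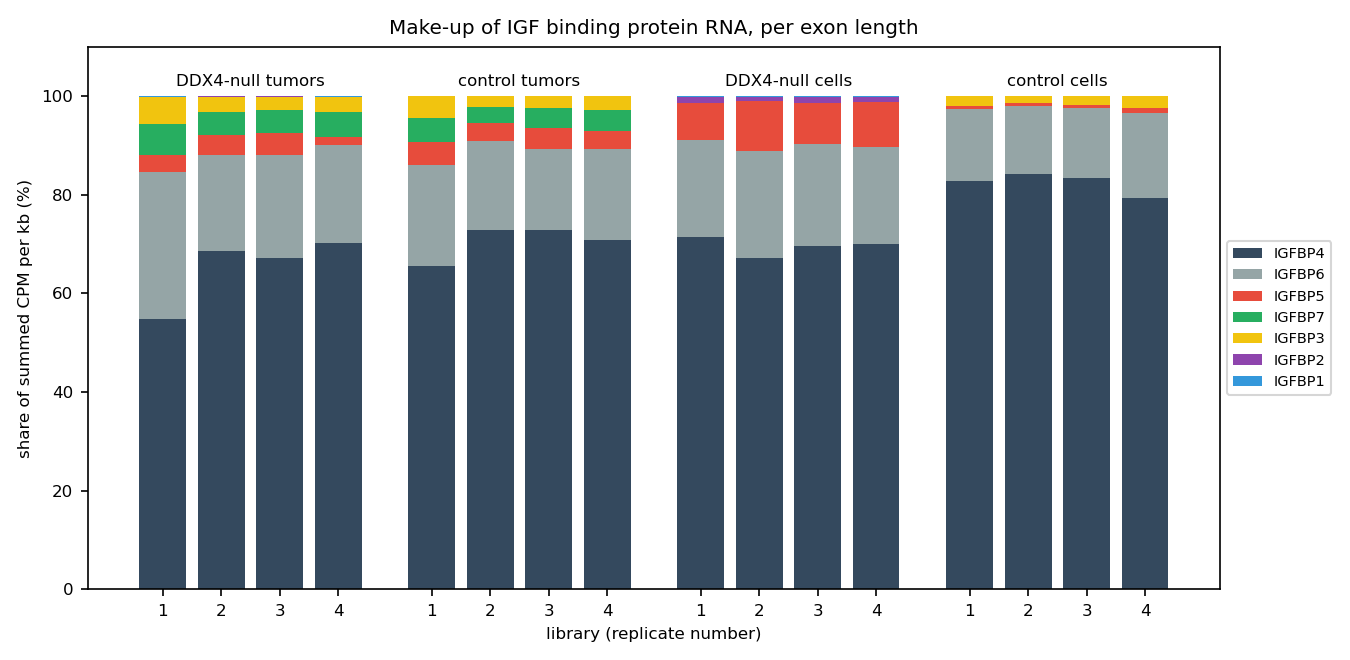
Share of each binding protein gene in the summed CPM per kb of exon of all 7, in percent, for each library; groups run from DDX4-null tumors over control tumors and DDX4-null cells to control cells. IGFBP4 is the largest share in all 16 libraries, IGFBP7 appears in tumors, and IGFBP5 is widest in DDX4-null cells.

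The genes whose pattern was most like a member were sought among 13356 genes for the 3 members that varied most, by the root mean square difference of centred log2 CPM over the 16 libraries. For IGFBP7 they were MMP2 (0.65), POSTN (0.79) and THBS2 (1.24), and POSTN is also on the fibroblast marker list. For IGF2 they were PDE1B (0.70), TNS1 (0.74) and CELF2 (0.78). TNS1, a neighbour of IGFBP5, averaged 19.7 CPM in DDX4-null tumors and 25.9 CPM in control tumors, and 42.8 CPM in DDX4-null cells and 0.259 CPM in control cells. For IGFBP2 they were CSMD2 (0.88), FXYD6 (0.89) and ZNF536 (0.93). All 3 had counts in every DDX4-null monolayer and 0 counts in control cells. FXYD6, for example, averaged 17.5 CPM in DDX4-null cells. The genes named here for each member were picked by their likeness to it, so that a shared pattern had to follow and is a description only.

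Other genes of the IGF system were taken as 7 lists of 81 genes. In tumors 65 were tested, and 1 was called higher and 2 lower, or 4.62%, where 2.09% of all genes tested were called. In monolayer 64 were tested, and 20 were called higher and 26 lower, or 71.9%, near the 67.3% of all genes tested (35% higher and 32.3% lower). The counts of single lists in monolayer stand against the same background, and nothing is read from them. In tumors the metalloprotease ADAM12, which can cut IGFBP3 and IGFBP5, stood at 1.26 ± 0.498 CPM in DDX4-null tumors and 7.06 ± 1.82 CPM in control tumors (log2 change -2.49 ± 0.29, adjusted p = 0.00371). The receptor adaptor IRS2 stood at 9.79 ± 1.24 CPM in DDX4-null tumors and 5.30 ± 0.798 CPM in control tumors (0.88 ± 0.16, adjusted p = 0.0242). ADAM12 stayed called whichever library was left out. IRS2 lost its call without DDX4-null tumor 3 or any of control tumors 1, 2 and 3 (adjusted p = 0.0571 to 0.105). In monolayer IRS2 averaged 38.0 CPM in DDX4-null cells and 6.85 CPM in control cells, and ADAM12 averaged 6.78 and 5.55 CPM in the same groups.

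**Figure D5:**
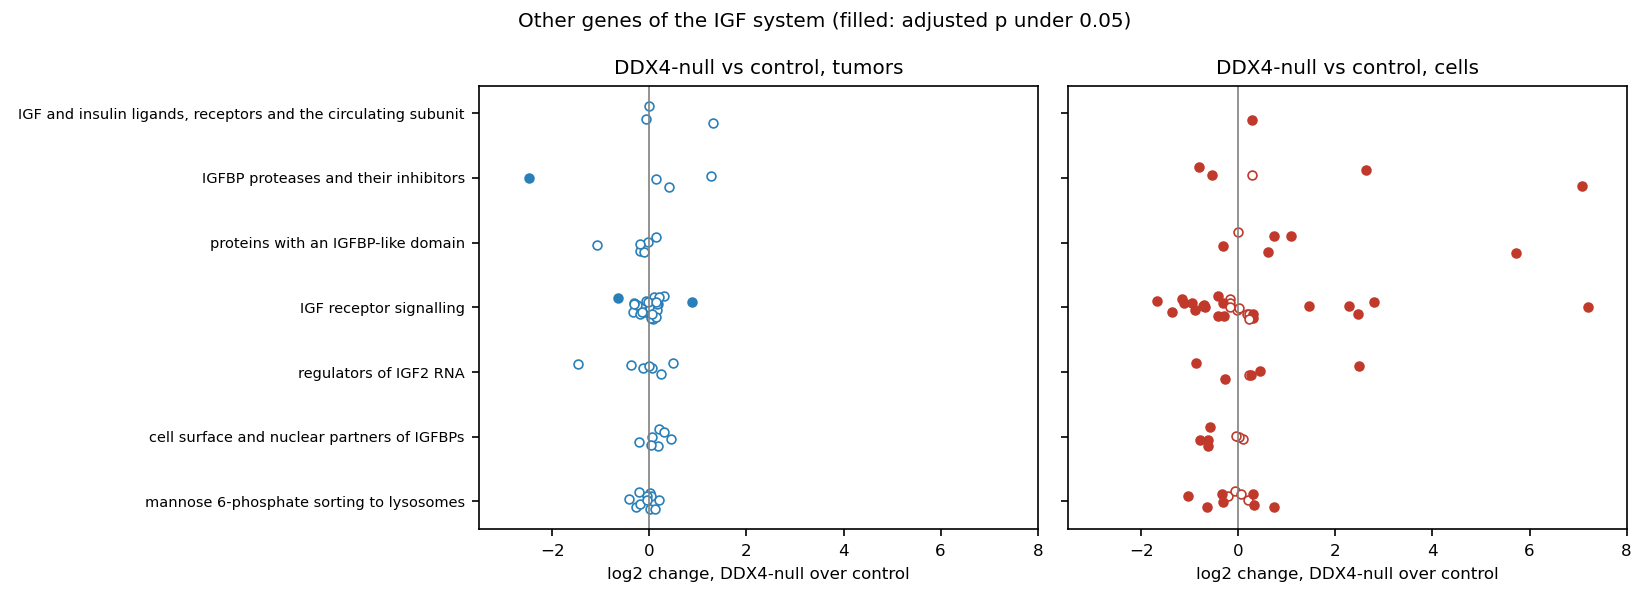
Log2 change, DDX4-null over control, of the tested genes of 7 lists of the IGF system in tumors and in monolayer cells; filled symbols have an adjusted p under 0.05. In tumors 3 of 65 symbols are filled, and in monolayer 46 of 64.

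Among the ligands and receptors outside the list, IGF1 had 140 counts over the 4 DDX4-null tumors and 79 over the control tumors, against 2 in DDX4-null cells and 0 in control cells. It averaged 2.59 ± 2.71 CPM in DDX4-null tumors and 0.992 ± 0.192 CPM in control tumors, with 6.60 CPM in DDX4-null tumor 1, and was not called (adjusted p = 0.228). The insulin receptor gene INSR was called higher in DDX4-null cells (0.29 ± 0.10, adjusted p = 0.0162), but not without DDX4-null cells 1 (adjusted p = 0.0638). Of 5 tested IGFBP proteases and inhibitors, 2 were called higher and 2 lower in monolayer, or 80% beside the 67.3% of all genes. STC1 and PAPPA2 passed the filter on low counts only through the DDX4-null cells, so that they had to differ. The 2 stanniocalcins, which inhibit PAPP-A, went opposite ways: STC1 stood at 44.2 CPM in DDX4-null cells and 0.320 CPM in control cells, and STC2 at 734 CPM in DDX4-null cells and 1290 CPM in control cells (log2 changes 7.08 ± 0.19 and -0.81 ± 0.11). PAPPA, the gene of PAPP-A, was near the floor, with 2 counts over the DDX4-null cells and 0 over the control cells. It had 6 counts over the DDX4-null tumors and 9 over the control tumors.

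Of 6 tested genes whose proteins carry an IGFBP-like domain, 4 were called higher and 1 lower in monolayer, or 83.3% beside the 67.3% of all genes. ESM1, which encodes endocan, stood at 254 CPM in DDX4-null cells and 4.85 CPM in control cells (5.71 ± 0.13), and the matricellular gene CCN2 at 522 CPM in DDX4-null cells and 247 CPM in control cells (1.08 ± 0.09). Of 28 tested genes of IGF receptor signalling, 7 were called higher and 13 lower in monolayer, or 71.4% beside the 67.3% of all genes. They included PIK3R1, a regulatory subunit of PI3-kinase (2.80 ± 0.13), and the feedback gene SOCS2 (2.29 ± 0.12), both higher in DDX4-null cells.

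Of 6 tested regulators of IGF2 RNA, 3 were called higher and 2 lower in monolayer, or 83.3% beside the 67.3% of all genes. PLAG1, a transcription factor that activates IGF2, changed by 2.48 ± 0.21, and HMGA2, which acts upstream of PLAG1, by -0.86 ± 0.10. Of 7 tested cell surface and nuclear partners of IGFBPs, 0 were called higher and 4 lower, or 57.1%, below the 67.3% of all genes. ITGA5, part of the integrin that binds IGFBP1, fell by 0.63 ± 0.09, and TGFBR2, a TGF-beta receptor, fell by 0.58 ± 0.09. Of 11 genes of mannose 6-phosphate sorting, which include the pathway that IGF2R serves, 3 were called higher and 4 lower, or 63.6% beside the 67.3% of all genes. SORT1 fell by 1.05 ± 0.10 and the adaptor GGA3 by 0.64 ± 0.10.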

How the data were processed

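The authors deposited raw read counts per Ensembl gene for 16 libraries. Per the labels' protocols, total RNA was cleared of DNA by DNase before a TruSeq Stranded mRNA preparation. The submitters' processing notes name featureCounts 2.0.3, STAR 2.7.10a, Trimmomatic 0.39 and the build GRCh37; the sources read here give neither annotation nor strand setting. Symbols were found for 19511 of 20356 identifiers.

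Counts were tested by edgeR 4.0.16 (R 4.3.3) in its quasi-likelihood mode after filterByExpr and TMM scaling, with Benjamini-Hochberg adjustment over all genes tested, called under 0.05. DDX4-null was compared with control in 8 tumor and in 8 monolayer libraries, tumors with cells within each genotype, and both genotype effects in a model of all 16. CPM were TMM-scaled over 16 libraries. Exon lengths came from GENCODE 29 on GRCh38, matched by Ensembl identifier. Count intervals are exact binomial at 95%, and a count of 0 was taken to allow 3. All replicate pairs differed by more than sampling noise. The steps were tested on simulated counts.

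All 10 members were named, with up to 2 called genes of smallest p in each list and genotype comparison, and the 3 genes most like each of the 3 most variable members. A single-gene result that the rule would name is not reported here, while counts include it. The members and lists were chosen with earlier results of these data known. Alternatives were DESeq2 1.42.0, other size factors, library totals, filters, a replicate block, chromosome medians as offsets, a model of all 16 libraries and leaving out each library. Repeating these for pathway genes, and the neighbouring genes, were chosen after seeing the data.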

Additional observations from a re-analysis of the deposited data

Results flagged for a closer look

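Of 38 groups of 4 libraries with any spread, 3 had a library far from the others in CPM, and chance gives about 1 in 20. IGF2R stood at 170 CPM in control tumor 3, against 153 to 154 CPM in the other control tumors. IGFBP4 stood at 863 CPM in DDX4-null cells 1, against 701 to 726 CPM in the other DDX4-null monolayers. IGFBP1 was at 0 CPM in control cells 3, against 1 count in each of the other control monolayers, a difference not detectable at this depth.

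The genotype effect, DDX4-null over control, differed between tumors and monolayer for 6 genes by the interaction term of the edgeR model. A seventh, IGFBP2, is listed with them as a description only, since its values brought up the list. As tumor effect minus monolayer effect on the log2 scale, the difference was -8.45 for IGF2, -0.98 for IGF1R, 0.52 for IGF2R, -5.80 for IGFBP2, 7.14 for IGFBP3, 0.49 for IGFBP4 and -3.68 for IGFBP5. The calls of IGF2R and IGFBP4 were lost with library totals (adjusted p = 0.145 and 0.102 in the edgeR test) and without some single libraries. For IGFBP3, IGFBP4 and IGF2R the monolayer change was negative and the tumor change closer to 0 or above it, and for the other 4 the monolayer change was positive and the tumor change smaller. Whether RNA of host or stromal cells, present in tumors and not in monolayer, has a part in these differences was not tested.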

How the results depend on the processing

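Of 347 values of single members under other settings, 341 kept their direction and their side of the threshold, 3 lost and 2 gained a call and 1 reversed; of 432 values with 1 library left out, 410 kept both, 15 lost a call and 7 reversed. The cause was not tested. Members called in tumors numbered 1; they numbered 0 with a filter of at least 1 CPM in 4 libraries, which removed IGFBP2, 2 in the model of all 16 libraries, where IGFBP1 entered the test, and 0 to 1 with 1 library left out. The 1 member called in tumors was IGFBP2, whose values brought up the list, so its call is a description only. That call was lost without DDX4-null tumor 2, 3 or 4 or control tumor 1, 2 or 3. Over all genes the 270 calls in tumors became 880 with DESeq2, 808 in the model of all 16 libraries and 26 to 289 with 1 library left out. With library totals 36.6% of tumor calls were higher, against 47.0% as reported, and with a replicate block 60.7%. The labels do not say whether equal replicate numbers pair libraries. Deviations of such libraries correlated at -0.105 to 0.172, which cannot decide it. With the replicate block 1 member and 425 genes were called in tumors, and 8 members in monolayer. Reversals were all among uncalled differences. With 1 library left out, the tumor changes ran from -0.0234 (without DDX4-null tumor 1) to 0.58 for IGFBP3, from -0.0043 (without DDX4-null tumor 3) to 0.24 for IGF1R, and from -0.38 to 0.0446 for IGF2, which was positive without DDX4-null tumor 4 (0.0171) or control tumor 2. IGFBP6 ran from -0.0202 to 0.36 for the difference between genotype effects and from -0.13 to 0.26 for DDX4-null tumors against DDX4-null cells, both lowest without DDX4-null tumor 1. For control tumors against control cells, IGFBP6 gave 0.0545 with library totals, where the median of all genes was 0.19, against 0.02 with TMM, and IGF1R ran from -0.0054 (without control cells 4) to 0.17. Counts limit IGFBP1 and IGFBP2 in tumors and in control cells.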
